A study of Mus musculus with 2 samples.

Results

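The epidermal growth factor (EGF) family ligands were followed in stromal and other cells of the mouse intestinal lamina propria. The genes are *Nrg1*, *Ereg*, *Areg*, *Hbegf*, *Btc*, *Tgfa*, *Epgn* and *Egf*, 8 of the 31053 genes counted. They were listed by name, with earlier results of these data known. The data are 2 droplet single-cell RNA-seq libraries, 1 per genotype. The ApcMin library came from ApcMin/+;Lef1 +/+ mice, and the VApcMinL library from mice carrying ApcMin/+, Lef1 fl/fl and Villin-Cre, a recombinase driven in the intestinal epithelium. All mice were C57BL/6, 11 weeks old by the labels, and carried the ApcMin allele, so neither library lacks it. The number of mice behind a library is not given in the sources used here. Cells were sorted as DAPI-negative, Ter119-negative, Epcam-negative and CD45-negative, so epithelial, immune and erythroid cells in the files are those that passed this gate.

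The EGF family ligands are made as membrane-anchored precursors, which are cut at the cell surface to release the growth factor. Amphiregulin (*Areg*), TGF-alpha (*Tgfa*), epigen (*Epgn*) and EGF (*Egf*) bind EGFR, whereas HB-EGF (*Hbegf*), betacellulin (*Btc*) and epiregulin (*Ereg*) bind EGFR and ERBB4. Neuregulin 1 (*Nrg1*) binds ERBB3 and ERBB4, and ERBB3 signals together with ERBB2. In the intestine the family is known as a source of growth signals for crypt stem and progenitor cells.

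The genes *Epgn*, *Ereg*, *Areg* and *Btc* lie side by side on chromosome 5 of GRCm38, within 375.5 kb from 91027464 to 91402994. *Epgn* is at 91027464-91035215, *Ereg* at 91074622-91093646 and *Areg* at 91139599-91148432, all on the plus strand, and *Btc* is on the minus strand at 91357261-91402994. *Nrg1* is on chromosome 8 (31814551-32884029, minus strand), *Tgfa* on chromosome 6 (86195223-86275719, plus strand) and *Egf* on chromosome 3 (129677565-129755316, minus strand). The promoters of 3 of the 4 neighbours are shown because these genes share a locus, while in the results that follow most *Areg* UMIs lay in epithelial-like cells and most *Epgn* UMIs in Adamdec1 fibroblast-like cells. Each holds 250 bases before and 50 after the RefSeq start (GRCm38.p6), 5′ to 3′ on the gene's strand, with capitals for motif matches.
Epgn, chr5:91027267-91027566, plus strand: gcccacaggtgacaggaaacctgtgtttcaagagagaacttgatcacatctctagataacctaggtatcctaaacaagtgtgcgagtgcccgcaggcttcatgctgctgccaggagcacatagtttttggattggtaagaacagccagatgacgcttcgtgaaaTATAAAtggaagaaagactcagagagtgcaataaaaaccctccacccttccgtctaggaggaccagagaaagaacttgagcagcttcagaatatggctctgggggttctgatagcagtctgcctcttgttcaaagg
Areg, chr5:91139349-91139648, plus strand: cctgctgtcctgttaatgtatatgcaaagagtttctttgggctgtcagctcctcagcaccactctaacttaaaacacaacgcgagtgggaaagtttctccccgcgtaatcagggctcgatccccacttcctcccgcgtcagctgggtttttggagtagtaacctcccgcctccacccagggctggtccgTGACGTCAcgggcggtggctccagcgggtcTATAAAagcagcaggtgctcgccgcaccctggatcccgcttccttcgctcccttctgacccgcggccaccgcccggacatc
Btc, chr5:91402945-91403244, minus strand: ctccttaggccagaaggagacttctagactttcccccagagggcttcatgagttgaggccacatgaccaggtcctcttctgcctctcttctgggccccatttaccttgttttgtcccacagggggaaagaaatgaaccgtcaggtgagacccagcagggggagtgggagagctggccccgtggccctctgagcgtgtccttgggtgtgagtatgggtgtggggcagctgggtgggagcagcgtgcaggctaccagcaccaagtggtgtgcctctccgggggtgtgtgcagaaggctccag
Searched on both strands were TGACGTCA, the cyclic AMP response element, TGANTCA, the AP-1 element, and TATAAA, the TATA box. TGACGTCA was found in *Areg*, among the 5 ligands with a promoter entry, and in 1.79% of 32851 mouse promoters. TATAAA was found in *Areg* and *Epgn* and in 13.6% of all promoters. TGANTCA was in none of the 5 and in 7.81% of all promoters.

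Barcodes with at least 3000 UMIs (unique molecular identifiers, 1 per counted RNA molecule) and at most 20% mitochondrial UMIs numbered 6599 in ApcMin and 6569 in VApcMinL. After 348 and 345 likely doublets were left out, 6251 and 6224 cells remained, with medians of 10709 and 8932 UMIs, and 18 barcode sequences occurred in both libraries. Cells were clustered without the 8 ligand genes, and clusters were called "-like" from marker genes. Levels are the summed UMIs of a gene over those of all genes in the class, scaled as in the usual CPM, with exact 95% intervals for counting error alone. Neither genotype has a second library, so no test was run, and the genotypes cannot be told apart from the mice, dissections and sorts that went with them. The classes differed in size, and the libraries held 37 and 307 epithelial-like, 102 and 454 blood endothelial-like, 53 and 194 telocyte-like, and 23 and 160 glial-like cells. *Lef1*, the targeted gene, had 22 and 29 UMIs in epithelial-like cells, 9.52 and 2.16 CPM, a ratio of 0.227 (0.126 to 0.415), although a 3′ tag may lie outside the deleted part. In this class 2311 of 9921 genes were at 2-fold or more between the libraries, 1845 of them lower in VApcMinL. Whether the *Lef1* ratio reflects the deletion was not tested.

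The ligands differed in the cells that held them. *Ereg* was highest in Adamdec1 fibroblast-like cells, *Nrg1* in telocyte-like cells, *Areg* in epithelial-like and T cell- or ILC-like cells, and *Hbegf* in glial-like, epithelial-like and blood endothelial-like cells. In ApcMin most telocyte-like *Nrg1* UMIs lay in 24 cells. *Btc* was spread over Adamdec1 fibroblast-like, smooth muscle-like and epithelial-like cells, whereas *Tgfa*, *Epgn* and *Egf* were low throughout. Summed over all cells, UMIs in ApcMin and VApcMinL were 4212 and 9344 for *Ereg*, 2587 and 9269 for *Hbegf*, 867 and 5714 for *Areg*, and 831 and 1562 for *Nrg1*. *Btc* had 339 and 596, *Tgfa* 89 and 176, *Epgn* 31 and 79, and *Egf* 39 and 70. These totals move with the shares of the classes as well as with the level inside a class.

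**Figure D1:**
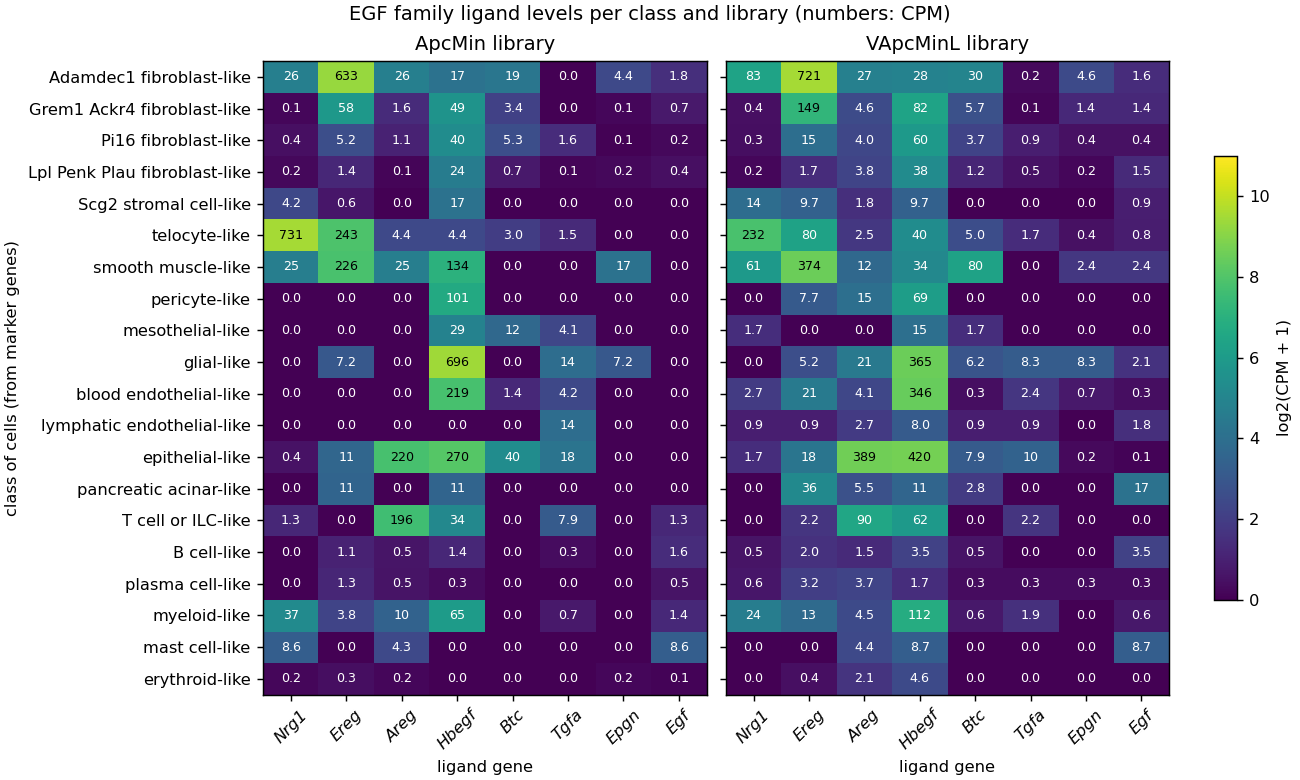
Level of each of the 8 ligands (columns) in 20 classes of cells (rows), 1 panel per library. Colors show log2(CPM + 1) and numbers show CPM. *Ereg* stands out in the Adamdec1 fibroblast-like row (633 and 721 CPM), *Nrg1* in the telocyte-like row and *Areg* in the epithelial-like and T cell- or ILC-like rows. In ApcMin 24 cells hold 482 of the 493 telocyte-like *Nrg1* UMIs. *Hbegf* is highest in the glial-like row of ApcMin (696 CPM) and the epithelial-like row of VApcMinL (420 CPM).

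**Figure D2:**
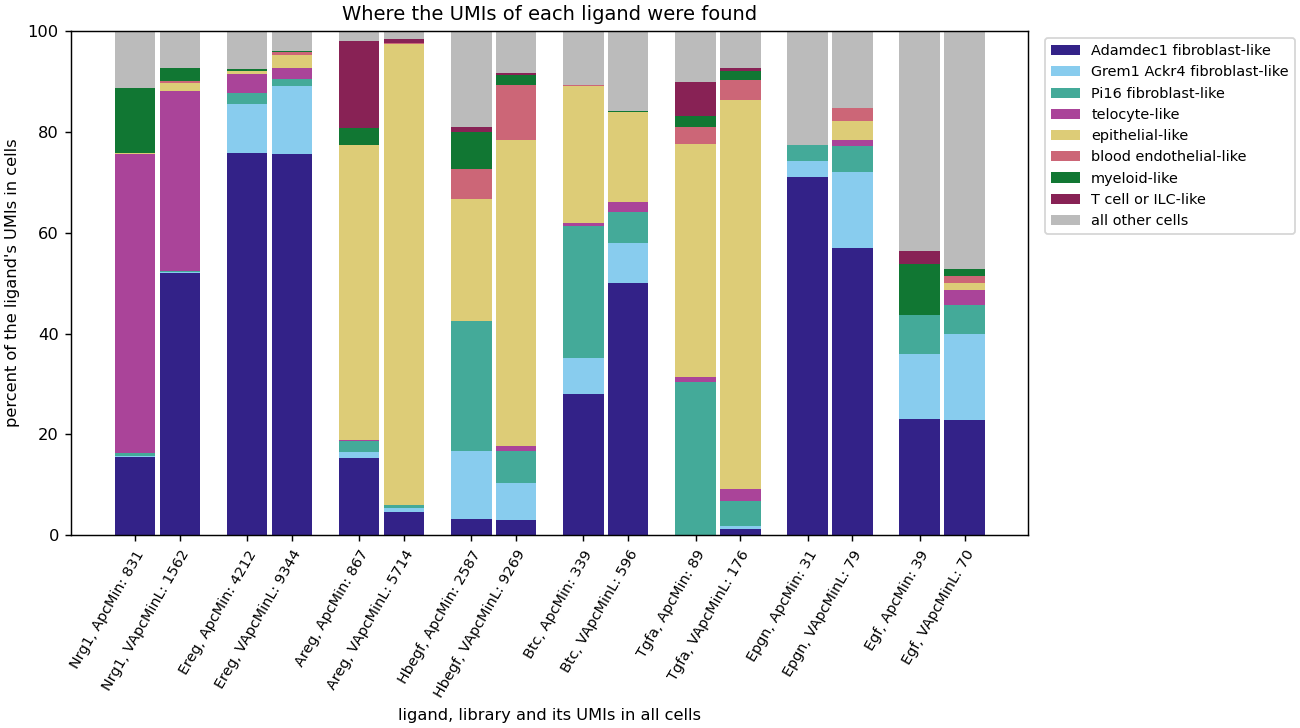
Percent of each ligand's UMIs found in each class, 1 bar per ligand and library, with the ligand's UMIs in all cells in the axis label. Adamdec1 fibroblast-like cells hold about the same part of the *Ereg* bars in both libraries (75.9 and 75.6%), while the epithelial-like part of the *Areg* and *Hbegf* bars is larger in VApcMinL.

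*Ereg* was the ligand of the Adamdec1 fibroblast-like cells, the lamina propria fibroblasts marked by *Adamdec1*, *Tcf21* and *Ccl11*. The other markers of the list, *Cp* and *Edn3*, had a UMI in 65.2% and 6.58% of the Adamdec1 fibroblast-like cells. These cells were 6.70% of ApcMin and 16.7% of VApcMinL cells, and they held 75.9% and 75.6% of all *Ereg* UMIs. The level was 633 CPM (3198 UMIs in 419 cells) in ApcMin and 721 CPM (7068 UMIs in 1039 cells) in VApcMinL, a ratio of 1.14 (1.09 to 1.19). An *Ereg* UMI was found in 80.2% and 76.1% of these cells, whose median depths were 11706 and 9077 UMIs, and in 54.2% and 55.9% once all cells were reduced at random to 3000 UMIs. B cell-like cells, which are not known to make epiregulin, gave 0.464% and 1.15% with median depths of 4849 and 4582.5 UMIs.

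Within the fibroblast classes *Ereg* fell into steps. The Cxcl13 Sfrp1 cluster of the Adamdec1 class had 672 and 819 CPM, and the Col6a5 Mmp10 cluster 432 and 453 CPM. Grem1 Ackr4 fibroblast-like cells, marked by the BMP antagonist *Grem1*, had 57.5 and 149 CPM (408 and 1254 UMIs), a ratio of 2.60 (2.32 to 2.91). The ratio was above 2 in both of their clusters, from 120 to 265 CPM in the Grem1 Hspa1a cluster and from 38.8 to 96.2 CPM in the Grem1 Shisa3 cluster. Pi16 fibroblast-like cells had 5.19 and 14.7 CPM, a ratio of 2.83 (2.15 to 3.74), but 5 cells held 66.7% and 60.8% of these UMIs. Classed 1 cell at a time by markers, Pi16 cells had a log2 ratio of -0.29 in place of 1.5. Lpl Penk Plau fibroblast-like cells, with 1.36 and 1.66 CPM, were near the bottom, with 14 and 11 UMIs where free RNA could give up to 6.54 and 8.60.

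Telocyte-like cells, which are described below with *Nrg1*, had 243 CPM of *Ereg* (164 UMIs in 53 cells) in ApcMin and 79.8 CPM (192 UMIs in 194 cells) in VApcMinL, a ratio of 0.328 (0.265 to 0.406). Nearly all of these UMIs, 163 and 186, lay in their Bmp5 Bmp7 Sox6 cluster, at 411.5 and 272 CPM, where an *Ereg* UMI was found in 56.7% of 30 and 63.2% of 68 cells. Within that cluster the ratio was 0.660 (0.532 to 0.820). The class ratio was reversed under 3 of 10 alternatives, with a log2 ratio of 1.55 with doublets kept and of 1.10 and 1.33 at clustering resolutions of 0.3 and 1.0, in place of -1.61.

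In smooth muscle-like and blood endothelial-like cells a few cells held most *Ereg* UMIs. In smooth muscle-like cells, 14 and 41 in number, the level was 226 and 374 CPM, and 92.6% of the 27 ApcMin UMIs lay in 1 cell. These UMIs came from the Hhip Npnt cluster, at 629 and 699 CPM, in which 22.2% of cells had a *Pdgfra* UMI. Blood endothelial-like cells had 0 UMIs in 102 ApcMin cells, which allows a share of up to 2.94% of cells with a UMI, and 63 UMIs in VApcMinL. Against the floor of 3 UMIs this is at least 5.12-fold higher, yet 1 cell held 55 of the 63 UMIs. Ranked by the mean of the libraries, Adamdec1 fibroblast-like cells stood above all other classes with no overlap of intervals, while smooth muscle-like, telocyte-like and Grem1 Ackr4 fibroblast-like cells, next in order, overlapped each other.

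*Nrg1*, the ERBB3 ligand of the set, was highest in telocyte-like cells, a class of 2 *Pdgfra*-positive clusters called from a list of subepithelial cell markers. In ApcMin the level rested on few cells, since 482 of the 493 *Nrg1* UMIs of the class lay in 24 cells of 1 cluster. A *Bmp5* UMI was found in 96.9% and a *Bmp7* UMI in 86.7% of the 98 cells of the Bmp5 Bmp7 Sox6 cluster, but in 6.71% and 21.5% of the 149 cells of the Wif1 Itgbl1 cluster, which was called from *Wif1* and *Itgbl1*. A UMI of *Foxl1*, a defining marker of telocytes, was found in 31.6% and 6.71% of these clusters and in 21.8% of the Col6a5 Mmp10 cluster of the Adamdec1 class, so *Foxl1* did not set the class apart. The class level was 731 CPM (493 UMIs in 53 cells) in ApcMin and 232 CPM (558 UMIs in 194 cells) in VApcMinL, a ratio of 0.317 (0.28 to 0.359). In Adamdec1 fibroblast-like cells the libraries stood the other way, at 25.5 CPM (129 UMIs) and 83.1 CPM (814 UMIs), a ratio of 3.25 (2.70 to 3.95). Telocyte-like cells held 59.3% and 35.7% of all *Nrg1* UMIs and Adamdec1 fibroblast-like cells 15.5% and 52.1%. Both ratios changed sign under other processing, and the cause was not tested. With doublets kept, the log2 ratio was 2.66 in telocyte-like and -0.38 in Adamdec1 fibroblast-like cells, in place of -1.66 and 1.70, and with coarser clusters (resolution 0.3) it was 2.53 and -0.25. With finer clusters (resolution 1.0) it was 2.79 and 1.23, so the telocyte-like ratio was reversed and the Adamdec1 fibroblast-like ratio was not.

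The clusters differed in *Nrg1*. In the Bmp5 Bmp7 Sox6 cluster *Nrg1* was at 1242 CPM (492 UMIs in 30 cells) in ApcMin and 272 CPM (186 UMIs in 68 cells) in VApcMinL. Within it, cells with a UMI of *Agt*, the angiotensinogen gene, held 482 of the 492 and 176 of the 186 *Nrg1* UMIs. These were 24 of 30 and 14 of 68 cells, at 1456 and 885 CPM, and *Agt* was chosen after its values were seen. The other telocyte-like cluster, led by *Wif1* and *Itgbl1*, had 1 *Nrg1* UMI in 23 ApcMin cells and 372 UMIs in 126 VApcMinL cells (216 CPM). A UMI of its leading gene *Wif1*, a secreted Wnt inhibitor, was found in 4.35% of those ApcMin cells and 71.4% of the VApcMinL cells. *Itgbl1*, the other leading gene, was found in 41.5% and 52.6% of all telocyte-like cells and in 0% of the Bmp5 Bmp7 Sox6 cluster. Whether the Wif1 Itgbl1 cluster held the same cells in both libraries was not tested. In the Adamdec1 class the Col6a5 Mmp10 cluster was high, at 131 and 250 CPM (106 and 655 UMIs), and the Cxcl13 Sfrp1 cluster low, at 5.42 and 22.2 CPM. An unnamed *Pdgfra*-positive cluster led by *P2rx1*, *C1qa* and *Itga8* had 65 UMIs in each library, 175 and 93.8 CPM.

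**Figure D3:**
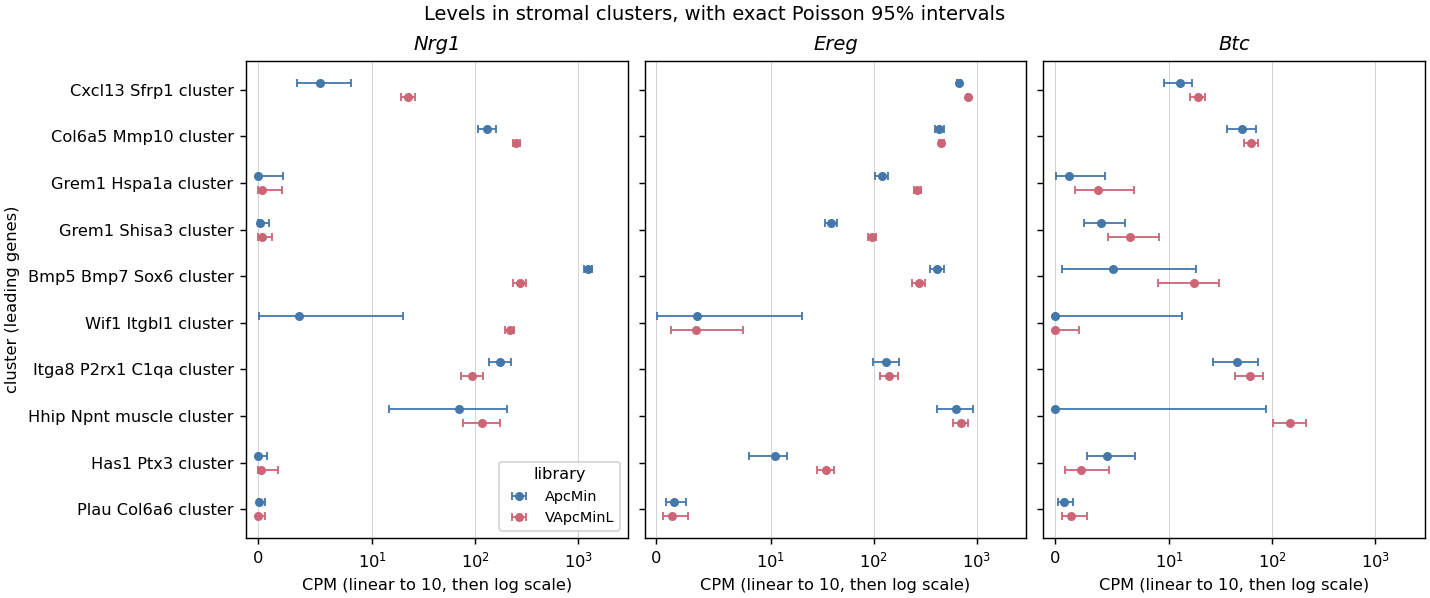
Levels of *Nrg1*, *Ereg* and *Btc* (x axis, CPM, linear to 10 and then logarithmic) in 10 stromal clusters named by leading genes, with exact Poisson 95% intervals, ApcMin in blue and VApcMinL in red. *Nrg1* is highest in the Bmp5 Bmp7 Sox6 cluster of ApcMin (1242 CPM), and the libraries are farthest apart in the Wif1 Itgbl1 cluster (3.60 and 216 CPM).

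A *Pdgfra* set, which needs no finer assignment, joined initial clusters before these were divided further. It took those in which at least 50% of cells had a *Pdgfra* UMI and at least 50% a *Col1a2* UMI. The set includes the smooth muscle-like Hhip Npnt cluster, with 5 and 22 cells and 3 and 25 *Nrg1* UMIs. In that cluster alone, 22.2% of cells had a *Pdgfra* UMI. Over the whole set *Nrg1* was at 16.3 CPM in 3193 ApcMin cells and 37.6 CPM in 3563 VApcMinL cells, a ratio of 2.31 (2.11 to 2.53). In ApcMin 19 cells with 10 or more *Nrg1* UMIs held 78.1% of the UMIs of this set, and in VApcMinL 32 such cells held 46.6%. Cells without an *Agt* UMI were at 3.52 and 18.1 CPM, and cells with 1 to 2 *Agt* UMIs at 50.6 and 141 CPM. From there the libraries stood the other way, at 271 and 157 CPM in cells with 3 to 9 *Agt* UMIs and 1612 and 488 CPM in the 11 and 28 cells with 10 or more. In the same set *Ereg* had a ratio of 2.40, *Areg* 2.46, *Btc* 2.18 and *Hbegf* 1.53, and these values carry the larger share of Adamdec1 fibroblast-like cells in VApcMinL.

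**Figure D4:**
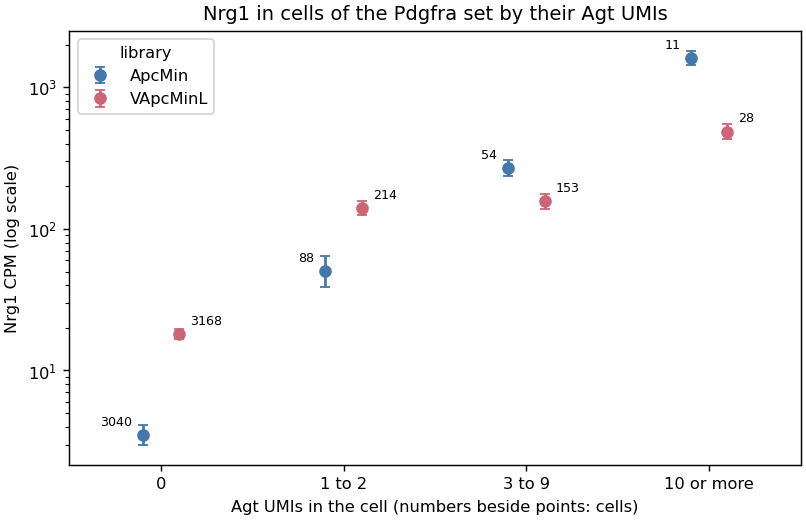
*Nrg1* level (y axis, CPM, log scale) in cells of the *Pdgfra* set by the number of *Agt* UMIs in the cell, with exact Poisson 95% intervals and the number of cells beside each point. ApcMin lies below VApcMinL at 0 and at 1 to 2 *Agt* UMIs (3.52 against 18.1 CPM, 50.6 against 141 CPM) and above it at 10 or more (1612 against 488 CPM).

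Of the remaining *Nrg1* UMIs, 75 in ApcMin and 68 in VApcMinL were in unnamed cells, mostly those of the P2rx1 cluster, and smooth muscle-like cells had 3 and 25, epithelial-like cells 1 and 23 and Scg2 stromal cell-like cells 7 and 16. Myeloid-like cells had 37.4 and 24.3 CPM (107 and 38 UMIs), a ratio of 0.649 (0.436 to 0.948). Of these UMIs 95 and 31 lay in the cluster led by *S100a9*, *Mmp12* and *Arg1*, at 99.2 and 69.2 CPM. Grem1 Ackr4 and Lpl Penk Plau fibroblast-like cells had 1 and 3, and 2 and 1 UMIs, and Pi16 fibroblast-like cells 6 and 3. After telocyte-like cells, the intervals of the Adamdec1 fibroblast-like, smooth muscle-like and myeloid-like levels overlapped.

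*Areg* was found chiefly in epithelial-like cells, which held 58.6% of its UMIs in ApcMin and 91.4% in VApcMinL. The level was 220 CPM (508 UMIs in 37 cells) and 389 CPM (5221 UMIs in 307 cells), a ratio of 1.77 (1.62 to 1.95). The enterocyte genes *Sis* and *Apoa1* led a cluster with 26 and 280 of these cells, in which *Areg* was at 350 and 421 CPM, a ratio of 1.20 (1.09 to 1.34). In the Krt18 Cldn4 cluster, with 11 and 27 cells, it was at 91.9 and 179 CPM, a ratio of 1.94 (1.56 to 2.45). The class ratio thus joins different shares of the 2 clusters. An *Areg* UMI was found in 62.2% and 76.6% of epithelial-like cells (27.0% and 46.9% after thinning), and in 0.309% and 0.575% of B cell-like cells. The highest single cell had 71 *Areg* UMIs in ApcMin and 147 in VApcMinL.

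T cell- or ILC-like cells, marked by *Cd3e*, *Il7r* and *Gata3*, were the other *Areg* class, at 196 CPM (150 UMIs in 101 cells) and 90.3 CPM (41 UMIs in 66 cells). The ratio was 0.460 (0.317 to 0.653), but in ApcMin 1 cell held 62 of the 150 UMIs and 5 cells 88%. Without the 5 highest cells of each library the log2 ratio was -0.25 in place of -1.12. Cells with a UMI of *Gata3*, a transcription factor of type 2 lymphocytes, had 297 and 162 CPM, against 120 and 32.0 CPM in cells without. Cells without a UMI of *Cd3e*, a T cell receptor subunit, had 356 and 258 CPM, against 164 and 27.3 CPM in cells with one. Both splits had the same order in each library, with *Areg* UMIs in 13 and 12 cells of the class.

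In Adamdec1 fibroblast-like cells *Areg* was at 26.1 and 26.7 CPM, a ratio of 1.02 (0.827 to 1.27). Empty droplets of VApcMinL were rich in *Areg*, at 101 CPM against 16.6 CPM in ApcMin, so free RNA could give up to 28.3 of the 262 *Areg* UMIs of this class in VApcMinL and 3.02 of 132 in ApcMin. In VApcMinL this estimate was a large part of the low *Areg* counts of other fibroblasts, although all 3 classes were above it. Lpl Penk Plau fibroblast-like cells had 25 UMIs with up to 19.3 expected, Pi16 fibroblast-like cells 39 with up to 18.3, and Grem1 Ackr4 fibroblast-like cells 39 with up to 18.1.

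*Hbegf*, whose product is also known as the diphtheria toxin receptor, was spread over many classes. Glial-like cells, with *Kcna1* among their leading genes, had 696 CPM (97 UMIs in 23 cells) in ApcMin and 365 CPM (352 UMIs in 160 cells) in VApcMinL, a ratio of 0.525 (0.418 to 0.665). In ApcMin 5 cells held 67.0% of these UMIs. Without the 5 highest cells of each library the log2 ratio was -0.08 in place of -0.93. Epithelial-like cells had 270 and 420 CPM (625 and 5628 UMIs), a ratio of 1.55 (1.43 to 1.69). Within them the Sis Apoa1 cluster had 474 and 451 CPM, a ratio of 0.951 (0.870 to 1.04), and the Krt18 Cldn4 cluster 69.6 and 210 CPM, a ratio of 3.02 (2.37 to 3.90).

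Blood endothelial-like cells had 219 and 346 CPM of *Hbegf* (157 and 1018 UMIs), a ratio of 1.58 (1.34 to 1.88), and a UMI was found in 47.1% and 52.0% of them. Lymphatic endothelial-like cells, by contrast, had 0 UMIs in 33 ApcMin cells and 9 UMIs in 153 VApcMinL cells. Among myeloid-like cells, at 65.3 and 112 CPM, the Cd163 Mrc1 cluster was highest, at 132 and 212 CPM. The fibroblast classes were lower and stood the same way in the libraries. Grem1 Ackr4 fibroblast-like cells had 49.1 and 81.9 CPM, a ratio of 1.67 (1.47 to 1.91), Pi16 fibroblast-like cells 39.6 and 59.8 CPM, a ratio of 1.51 (1.35 to 1.69), and Lpl Penk Plau fibroblast-like cells 23.9 and 38.3 CPM, a ratio of 1.60 (1.34 to 1.92). Adamdec1 fibroblast-like cells had 16.6 and 28.2 CPM, a ratio of 1.69 (1.32 to 2.19). Telocyte-like cells had 3 and 96 UMIs, of which 3 and 94 lay in the Wif1 Itgbl1 cluster. The intervals of glial-like, epithelial-like and blood endothelial-like cells overlapped, and those of blood endothelial-like and myeloid-like cells did not.

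*Hbegf* is known as a rapidly induced gene, and a list of 12 immediate early genes, which respond to tissue dissociation, was set beside it. Of these genes, 11 had at least 50 UMIs in glial-like cells and all 11 were lower in VApcMinL, with summed levels of 40589 and 28344 CPM. In Grem1 Ackr4 fibroblast-like cells 11 of 12 were higher in VApcMinL (18150 and 22704 CPM), in Adamdec1 fibroblast-like cells 10 of 11 (8579 and 11915 CPM), in Pi16 fibroblast-like cells 10 of 12 (19946 and 21874 CPM), and in blood endothelial-like cells 8 of 12 (17859 and 18835 CPM). In epithelial-like cells 5 of 12 were higher and 7 lower (5499 and 5399 CPM), and in myeloid-like cells 3 of 11 were higher (12451 and 9947 CPM) although *Hbegf* was higher. In telocyte-like cells 11 of 12 and in Lpl Penk Plau fibroblast-like cells 8 of 12 were higher, as was *Hbegf*. In T cell- or ILC-like cells 1 of 9 was higher, although *Hbegf* was higher. All genes were counted at 2-fold only: 244 were higher and 77 lower in glial-like cells. The counts were 133 and 100 in Grem1 Ackr4, 324 and 130 in Adamdec1, and 302 and 169 in Pi16 fibroblast-like cells. They were 174 and 121 in Lpl Penk Plau fibroblast-like, 355 and 58 in blood endothelial-like, and 466 and 1845 in epithelial-like cells. They were 90 and 168 in myeloid-like, 391 and 209 in telocyte-like, and 49 and 83 in T cell- or ILC-like cells. The part of dissociation in the *Hbegf* differences was not tested.

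*Btc* was at 18.8 and 30.4 CPM (95 and 298 UMIs) in Adamdec1 fibroblast-like cells, a ratio of 1.62 (1.28 to 2.06). As with *Nrg1*, the Col6a5 Mmp10 cluster (50.7 and 61.8 CPM) was above the Cxcl13 Sfrp1 cluster (12.7 and 19.0 CPM). Smooth muscle-like cells had 0 UMIs in 14 ApcMin cells and 33 in 41 VApcMinL cells, at least 3.19-fold higher against the floor of 3 UMIs, and 32 of the 33 lay in the Hhip Npnt cluster. This cluster was 5 of the 14 and 22 of the 41 cells, and within it the bound was 2.15-fold. Epithelial-like cells had 39.8 and 7.91 CPM (92 and 106 UMIs), a ratio of 0.199 (0.149 to 0.266). This value rests on few cells: 1 ApcMin cell held 59 of the 92 UMIs, and without the 5 highest cells of each library 1 and 50 UMIs were left and the log2 ratio was 2.44 in place of -2.33. The Krt18 Cldn4 cluster held 91 of the 92 ApcMin UMIs and 78 of the 106 VApcMinL UMIs. Pi16 fibroblast-like cells had 5.31 and 3.69 CPM, a ratio of 0.696 (0.459 to 1.04).

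*Tgfa* was highest in epithelial-like cells, at 17.7 and 10.1 CPM (41 and 136 UMIs), a ratio of 0.572 (0.401 to 0.832). In ApcMin 5 cells held 63.4% of these UMIs. The ratio was 0.893 (0.491 to 1.78) in the Sis Apoa1 cluster and 0.625 (0.356 to 1.09) in the Krt18 Cldn4 cluster. Both of these intervals span 1, and the class ratio joins different shares of the 2 clusters. After thinning, a *Tgfa* UMI was left in 2.70% and 2.28% of epithelial-like cells. *Epgn* had 22 and 45 UMIs in Adamdec1 fibroblast-like cells, 4.36 and 4.59 CPM, a ratio of 1.05 (0.620 to 1.84), which were 71.0% and 57.0% of its UMIs. *Egf*, the founding member of the family, had 39 and 70 UMIs in all cells and at most 25 over both libraries in any class. Empty droplets had 1.66 and 0.388 CPM of *Egf*, and a pattern over classes was not detectable at this depth.

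The neighbours on chromosome 5 were set side by side. The most *Epgn*, *Ereg* and *Btc* UMIs were in Adamdec1 fibroblast-like cells, whereas most *Areg* UMIs, from the gene between *Ereg* and *Btc*, were in epithelial-like cells. Over the 20 classes the Pearson correlation of log2(CPM + 1) was 0.736 between *Ereg* and *Btc*, 0.657 between *Ereg* and *Nrg1*, 0.348 between *Ereg* and *Areg*, and 0.554 between *Hbegf* and *Tgfa*. These are descriptions over classes that share libraries. Cell by cell, after thinning, *Nrg1* UMIs were in 3.52% of Adamdec1 fibroblast-like cells with an *Ereg* UMI and 4.69% of those without in ApcMin, and in 11.4% and 10.5% in VApcMinL. *Hbegf* UMIs were in 70.0% of epithelial-like cells with and 37.0% of those without an *Areg* UMI in ApcMin, and in 66.7% and 49.1% in VApcMinL.

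Among 12852 genes compared over the 20 classes, the 5 most like *Nrg1* were *Wnt4* (0.858), *Col6a4* (0.848), *Hpse2* (0.828), *Adamdec1* (0.826) and *Inhba* (0.817). Most like *Ereg* were *Lrat* (0.892), *Fgfr2* (0.888), *Adamdec1* (0.876), *Hpse2* (0.872) and *Scube1* (0.859), so *Hpse2* and *Adamdec1* stood in both lists. For *Areg* they were *Nipal1* (0.866), *Bcl2l15* (0.840), *Gprin3* (0.810), *Aqp3* (0.791) and *Dgat1* (0.786). *Hbegf* was followed by *Atf3* (0.865), *Eid3* (0.839), *Tnfrsf12a* (0.829), *Azin1* (0.828) and *Tob1* (0.828), of which *Atf3* is an immediate early gene of the fixed list. *Btc* was followed by *Maob* (0.824), *Pitx1* (0.817), *Foxq1* (0.817), *Cxcl5* (0.806) and *Shisa2* (0.797), and *Tgfa* by *Kcnk5* (0.851), *Gm26764* (0.819), *Itgb4* (0.817), *Jade3* (0.772) and *Sh3yl1* (0.768).

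The libraries were compared over all genes with at least 50 UMIs in a class, counting genes at 2-fold or more in either direction as the background for the ligands. In Adamdec1 fibroblast-like cells 454 of 11148 genes passed (4.07%), and of the 6 ligands counted *Nrg1* did. In Grem1 Ackr4 fibroblast-like cells 2.15% of genes passed, and *Ereg* and *Areg* of 4 ligands did, as in Pi16 fibroblast-like cells, where 4.06% of genes passed. In Lpl Penk Plau fibroblast-like cells 2.7% passed and *Hbegf*, the 1 ligand counted, did not. In telocyte-like cells 8.44% of genes passed, and *Nrg1*, *Ereg* and *Hbegf* did, *Hbegf* being the higher one in VApcMinL. These telocyte-like cells lay in different clusters, 30 and 23 cells of ApcMin against 68 and 126 of VApcMinL in the Bmp5 Bmp7 Sox6 and Wif1 Itgbl1 clusters, and the *Nrg1* and *Ereg* ratios were reversed under the 3 alternatives given above. Epithelial-like cells had the largest share of the 11 classes with a ligand counted, with 2311 of 9921 genes past 2-fold (23.3%), 1845 of them lower in VApcMinL, and of 5 ligands *Btc* passed. The share was 3.83% in T cell- or ILC-like cells, where *Areg* of 2 ligands passed. It was 5.68% in blood endothelial-like cells, where *Ereg* of 2 did, with 55 of its 63 UMIs in 1 VApcMinL cell. Without the 5 highest cells of each library, the *Btc* ratio in epithelial-like cells was reversed. The *Areg* ratio in T cell- or ILC-like cells was then under 2-fold. *Nrg1* in Adamdec1 and *Ereg* in Pi16 fibroblast-like cells also changed sign under other processing. None passed of 2 ligands in myeloid-like cells (3.48% of genes), of 1 in glial-like cells (8.93%) and of 1 in smooth muscle-like cells (12.6%).

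**Figure D5:**
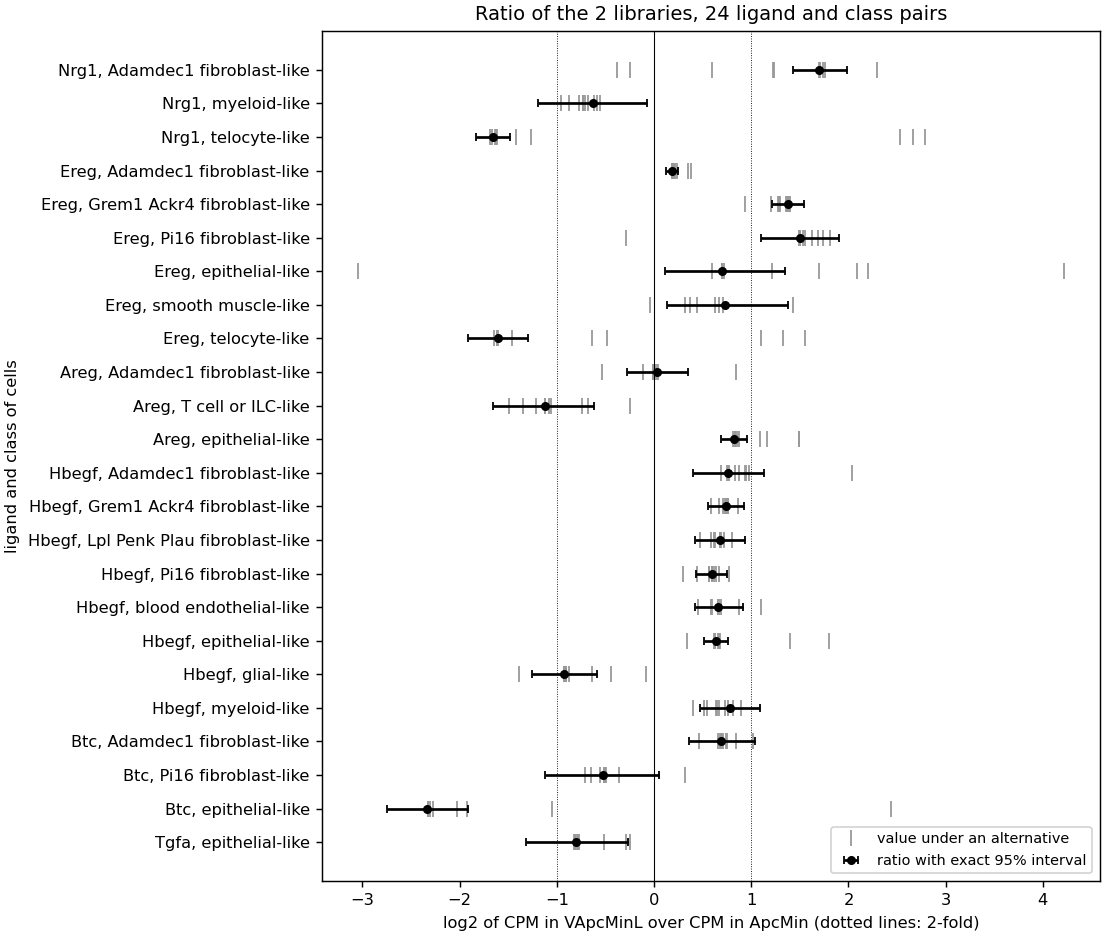
Log2 ratio of CPM in VApcMinL over ApcMin for the 24 ligand and class pairs with at least 100 UMIs over both libraries and at least 10 in each. Black points have exact 95% intervals for counting error, gray ticks are the values under other processing, and dotted lines mark 2-fold. *Nrg1* in Adamdec1 fibroblast-like and in telocyte-like cells has ticks on both sides of 0, whereas all ticks of *Hbegf* in the 4 fibroblast classes lie above 0.

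The receptors were counted in the same classes. *Egfr* was highest in Lpl Penk Plau fibroblast-like cells, at 286 and 276 CPM, followed by Pi16 fibroblast-like cells at 206 and 199 CPM and Grem1 Ackr4 fibroblast-like cells at 139 and 125 CPM. Adamdec1 fibroblast-like cells, with most *Ereg*, had 120 and 125 CPM of *Egfr*, and epithelial-like cells 12.6 and 8.73 CPM. Telocyte-like cells had 92.0 and 54.0 CPM, a ratio of 0.587 (0.431 to 0.808). *Erbb3*, the receptor of neuregulins, was highest in glial-like cells at 244 and 222 CPM and in epithelial-like cells at 102 and 125 CPM, and *Erbb2*, its partner, was at 30.3 and 29.5 CPM in epithelial-like cells. None of the receptors with at least 50 UMIs in a class was at 2-fold or more between libraries. Of the other neuregulins, *Nrg2* was at 14.8 and 34.5 CPM in telocyte-like cells and *Nrg4* at 6.92 and 8.88 CPM in epithelial-like cells.

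Of the 7 sheddases and their regulators, which cut the ligand precursors, 6 were counted in epithelial-like cells. All 6 were lower in VApcMinL, 3 of them by 2-fold or more. Of all genes in this class 23.3% were at 2-fold or more, 466 higher and 1845 lower. The class had 26 and 280 cells in the Sis Apoa1 cluster and 11 and 27 in the Krt18 Cldn4 cluster. Sheddase ratios within these clusters were not computed. *Adam17*, the main sheddase of *Areg* and *Tgfa* products, was at 29.4 and 11.4 CPM. *Adam10*, which also cuts EGF family precursors, was at 109.5 and 60.3 CPM, a ratio of 0.551 (0.478 to 0.637). In Adamdec1 fibroblast-like cells, beside 4.07% of all genes, 1 of 7 was higher by 2-fold, *Rhbdf2*, a partner of ADAM17, at 11.7 and 24.2 CPM, and 1 was lower, *Adam12*, at 5.35 and 2.45 CPM. Among those with at least 50 UMIs, none was at 2-fold in Grem1 Ackr4, Pi16 or Lpl Penk Plau fibroblast-like or telocyte-like cells. *Rhbdf2* fell under this minimum in Lpl Penk Plau fibroblast-like cells, with 14 and 22 UMIs and a ratio of 2.46 (1.20 to 5.19).

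Of the 14 feedback inhibitors of receptor signaling, 12 were counted in epithelial-like cells, 6 higher and 6 lower in VApcMinL. By 2-fold or more, 1 was higher and 1 lower, beside 23.3% of all genes in this class, 466 higher and 1845 lower. *Dusp5*, an ERK phosphatase, was higher by more than 2-fold, at 72.7 and 163 CPM, and *Lrig1*, a stem cell marker that restrains ERBB receptors, was lower, at 22.9 and 6.79 CPM. *Errfi1*, an EGFR inhibitor, was at 105 and 183 CPM, a ratio of 1.74 (1.525 to 1.995). In telocyte-like cells 3 of 13 were higher by 2-fold, *Lrig3*, *Spry2* and *Dusp5*, and none was lower, beside 8.44% of all genes in this class, 391 higher and 209 lower, and with the unequal clusters given above. *Spry2* was at 50.4 and 119 CPM there. In each of the 4 fibroblast classes none of 13 was at 2-fold.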

How the data were processed

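The 2 droplet libraries were each 1 sample with no replicate. The authors deposited raw UMI counts, whole numbers per gene and barcode without normalization or cell calling, for 6794880 barcodes per library (93203061 UMIs in ApcMin, 101609269 in VApcMinL). Per the labels, reads were aligned to mm10 with Cell Ranger 2.1.1 and analyzed with Seurat 3.1.1. The count file header names release 3.1.0, so the release is uncertain. A 3′ UMI counts molecules and does not scale with transcript length.

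Barcodes with at least 3000 UMIs and at most 20% mitochondrial UMIs were kept, and 531 VApcMinL and 75 ApcMin barcodes exceeded the mitochondrial limit. Doublets were the 348 ApcMin and 345 VApcMinL barcodes with the highest Scrublet scores (scanpy 1.11.5), a number set from the platform's usual doublet rate, since Scrublet's own threshold marked 0 and 1. Seurat 5.3.0 integrated the libraries without the 8 ligands (2000 variable genes, 30 anchor dimensions, 20 principal components), with Louvain resolution 0.2 and then 0.6 within fibroblast and mixed clusters. The second resolution, and the names of clusters, were set after the clusters were seen. A class needed 2 of its markers among the 10 leading genes of a cluster, or else came from marker detection, and 129 and 98 cells stayed unnamed. Members and gene lists were chosen with earlier results of these data known. Named genes were the 8 ligands, fixed lists of receptors, other ligands, sheddases, feedback inhibitors and immediate early genes, and the 5 genes most alike per ligand with at least 200 UMIs.

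CPM intervals are exact Poisson, ratio intervals exact conditional binomial and shares Clopper-Pearson (95%). A ratio against 0 used a floor of 3 UMIs. Free RNA was bounded from the empty droplets (ranks 45000 to 90000) with epithelial markers, or fibroblast markers in epithelial-like cells. Calculations were tested on simulated data. Python 3.11.15, numpy 2.4.6, pandas 2.3.3, scipy 1.17.1, matplotlib 3.10.9 and R 4.3.3 were used. Gene models are from GENCODE on GRCm38 and promoters from RefSeq.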

Additional observations from a re-analysis of the deposited data

Results flagged for a closer look

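The libraries stood in opposite directions for the same ligand in different classes, with intervals on opposite sides of 1, and the difference between classes was not tested. The log2 ratio (VApcMinL over ApcMin) of *Nrg1* was 1.70 in Adamdec1 fibroblast-like cells against -0.62 in myeloid-like and -1.66 in telocyte-like cells. For *Ereg* it was 1.38 in Grem1 Ackr4 fibroblast-like, 1.5 in Pi16 fibroblast-like, 0.70 in epithelial-like and 0.73 in smooth muscle-like cells, against -1.61 in telocyte-like cells. Under other processing the *Ereg* value ranged from -1.65 to 1.55 in telocyte-like, from -3.05 to 4.22 in epithelial-like, from -0.29 to 1.81 in Pi16 fibroblast-like and from -0.04 to 1.43 in smooth muscle-like cells, so these opposite directions were not kept under all alternatives. For *Nrg1* the range was -0.38 to 2.29 in Adamdec1 fibroblast-like and -1.69 to 2.79 in telocyte-like cells. For *Areg* it was 0.83 in epithelial-like and -1.12 in T cell- or ILC-like cells. For *Hbegf* it was 0.76 in Adamdec1, 0.74 in Grem1 Ackr4, 0.68 in Lpl Penk Plau and 0.59 in Pi16 fibroblast-like cells, 0.66 in blood endothelial-like, 0.63 in epithelial-like and 0.78 in myeloid-like cells, against -0.93 in glial-like cells. For *Btc* it was 0.69 in Adamdec1 fibroblast-like and -2.33 in epithelial-like cells. Under other processing the *Btc* value in epithelial-like cells ranged from -2.33 to 2.44, so this opposite direction was not kept under all alternatives. *Areg* in T cell- or ILC-like cells ranged from -1.49 to -0.25 and *Hbegf* in glial-like cells from -1.39 to -0.08.

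Barcodes with 500 to 2999 UMIs, 1921 in ApcMin and 4152 in VApcMinL, were used in no comparison. In VApcMinL they held ligand UMIs above the ApcMin level: *Nrg1* at 17.4 CPM against 2.19, *Ereg* at 68.2 CPM against 11.7, *Areg* at 19.5 CPM against 5.10, *Hbegf* at 68.9 CPM against 29.9 and *Btc* at 4.52 CPM against 0.365. Empty droplets of VApcMinL were higher still for *Areg* (101 CPM), *Hbegf* (79.3 CPM) and *Btc* (5.82 CPM). They were lower for *Nrg1* (5.62 CPM) and *Ereg* (45.2 CPM). Empty droplets of ApcMin had 16.6, 20.2, 3.04, 4.43 and 27.1 CPM in the same order. The part of free RNA in these barcodes was not tested.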

How the results depend on the processing

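No paired analysis was possible because there is a single library of either genotype. Of the 24 log2 ratios, 15 kept their sign under all 10 alternatives, of which the resolutions 0.3 and 1.0 were chosen after seeing the data. Classing cells 1 by 1 by markers gave 80.5% of cells the same class. The causes of the following changes were not tested. With doublets kept, the log2 ratio of *Nrg1* was -0.38 in Adamdec1 fibroblast-like and 2.66 in telocyte-like cells, of *Ereg* 1.55 in telocyte-like, of *Areg* 1.09 in epithelial-like and of *Hbegf* -0.44 in glial-like cells. At resolution 0.3 *Nrg1* was at -0.25 in Adamdec1 fibroblast-like and 2.53 in telocyte-like cells and *Ereg* at 1.10 in telocyte-like cells. At 1.0 *Nrg1* was at 1.23 and 2.79, and *Ereg* at 1.33 in telocyte-like and -0.04 in smooth muscle-like cells. Classed 1 by 1, *Nrg1* was at 0.60 and -1.27, and *Ereg* at 0.35 in Adamdec1 fibroblast-like, 1.43 in smooth muscle-like and -0.29 in Pi16 fibroblast-like cells. Without the 5 highest cells, *Nrg1* was at 2.29 and -1.42, *Ereg* at 0.38 in Adamdec1 fibroblast-like, *Areg* at -0.25 in T cell- or ILC-like and 1.49 in epithelial-like, *Hbegf* at 1.40 in epithelial-like and -0.08 in glial-like, and *Btc* at 2.44 in epithelial-like cells. Thinned to 3000 UMIs, *Nrg1* was at 1.22 in Adamdec1 fibroblast-like cells, and in epithelial-like cells *Areg* at 1.16, *Hbegf* at 0.34, *Btc* at -1.05 and *Tgfa* at -0.25. A mitochondrial limit of 10% gave *Areg* 1.49 and *Hbegf* 1.80 in epithelial-like cells, and a minimum of 5000 UMIs gave *Hbegf* -1.39 in glial-like cells. *Ereg* in epithelial-like cells ranged from -3.05 to 4.22, *Areg* in Adamdec1 fibroblast-like cells from -0.54 to 0.84 and *Btc* in Pi16 fibroblast-like cells from -0.71 to 0.32.

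With genes of at least 200 UMIs in place of 50, the number at 2-fold or more was 154 in Adamdec1, 56 in Grem1 Ackr4, 106 in Lpl Penk Plau and 173 in Pi16 fibroblast-like, 26 in T cell- or ILC-like, 79 in blood endothelial-like, 940 in epithelial-like, 24 in glial-like, 62 in myeloid-like, 33 in smooth muscle-like and 181 in telocyte-like cells. Fewer genes are counted by construction.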
